A study of Mus musculus with 6 samples.

Results

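The clustered protocadherins are cell-surface cadherins of the nervous system, encoded in 3 neighbouring gene clusters named alpha, beta and gamma. Members were chosen by symbol alone (Pcdha, Pcdhac, Pcdhb, Pcdhga, Pcdhgb or Pcdhgc followed by a number), which gave 58 of the 50383 gene IDs in the deposited tables. The alpha cluster held 14 of them, the beta cluster 22 and the gamma cluster 22. The symbol rule used no measured value, though it was set with earlier results of these data known.

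The tissue was lateral amygdala, where fear memories are formed and kept, taken from male 129xC57BL/6 hybrid mice aged 2 to 3 months. The 6 libraries formed 3 groups of 2, labelled control, scrambled siRNA and Baf53b siRNA, and all were made from messenger RNA selected by its poly(A) tail and sequenced as stranded paired ends. Baf53b siRNA is a small interfering RNA against Actl6b, the gene of the neuronal nucleosome remodelling subunit BAF53b, and was injected 1 day after training; scrambled siRNA is the same kind of molecule without that target. The labels mention tissue from 4 mice without saying whether each library pooled them, and give no treatment for the control mice, so p-values measure only the spread between these libraries. Levels are FPKM, a fragment count relative to the length of the gene's transcripts and to the size of the library.

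Each alpha or gamma transcript joins 1 variable exon, which codes for the extracellular cadherin repeats and the membrane span, to 3 constant exons that code for a common intracellular end. Beta genes are a single exon each and have no constant end. A neuron is known to use a small, largely random set of the alternate variable exons, chosen by promoter methylation, the DNA-binding protein CTCF and the cohesin ring, and the proteins bind copies of themselves on other cells, which lets a neuron tell its own branches from those of its neighbours. The C-type genes Pcdhac1, Pcdhac2, Pcdhgc3, Pcdhgc4 and Pcdhgc5 follow other rules, and several are used by most neurons of a kind. A tissue library averages these choices over many cells, so fewer cells using a gene and less RNA per cell cannot be told apart.

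The clusters lie on the plus strand of mouse chromosome 18 (build mm10): alpha at chr18:36930184-37187661, beta at chr18:37264938-37524479 and gamma at chr18:37661793-37841873. In the GENCODE M21 annotation all 58 members had the same start and end as in the deposited tables. Of these, 57 were annotated as protein coding and Pcdhgb8 as a polymorphic pseudogene. The symbol Pcdha11 belonged to 2 gene IDs; Pcdha11-a here is ENSMUSG00000007440.10, which starts at 37005203, and Pcdha11-b is ENSMUSG00000102206.5, which starts at 37010712.

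Exon sharing set what a gene-level FPKM can mean in each cluster. All 14 alpha members contained the same 3 stretches, of 59, 89 and 2712 bases, the longest at chr18:37184946-37187657. All 22 gamma members contained 3 others, of 59, 89 and 1968 bases, the longest at chr18:37839903-37841870. Bases held in common with another member made up a median of 53.4% of an alpha gene's exons (38.0 to 54.9%) and 44.7% of a gamma gene's (27.8 to 66.8%, from Pcdhgc5 to Pcdhga4). Among the beta genes only Pcdhb21 and Pcdhb22 overlapped, by 9.67% and 6.88% of their exons. A fragment that lies wholly in constant exons names the cluster but not the gene, so alpha and gamma values include an allocation made by the authors' software. Beta genes share almost no annotated exonic bases; sequence identity between them and multiply aligned reads were not measured.

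**Figure D1:**
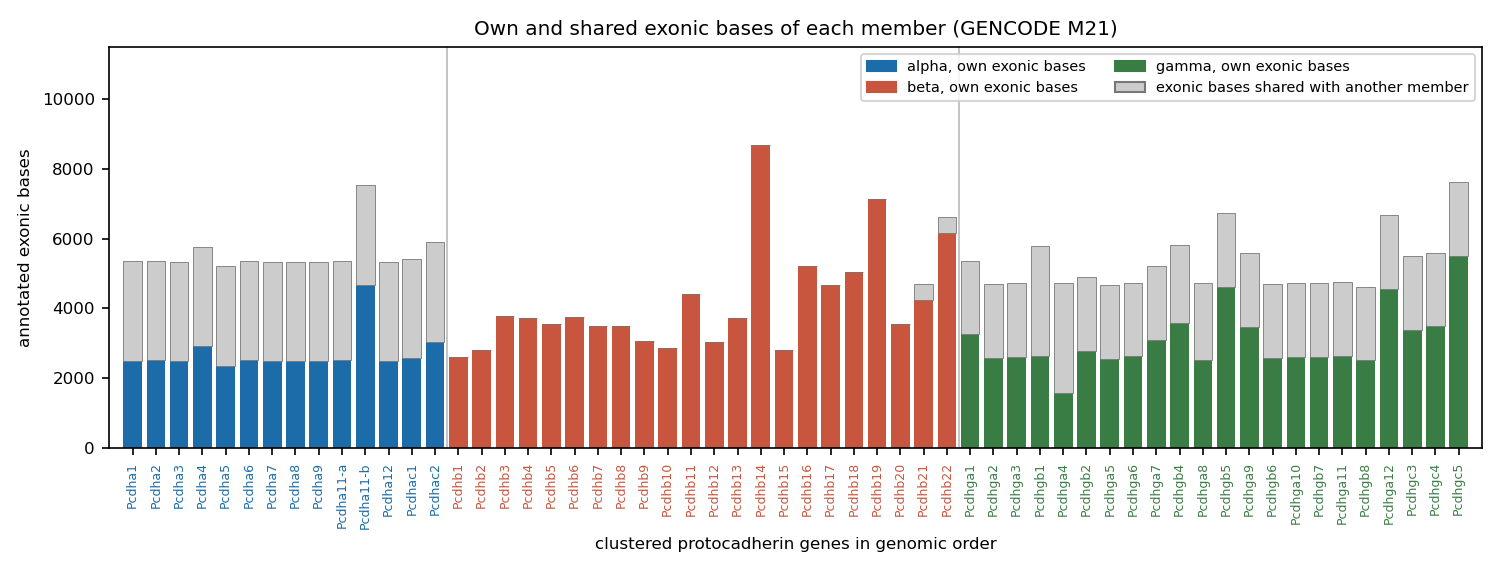
Annotated exonic bases (vertical axis) of each of the 58 members in genomic order, split into bases found in that gene only (coloured by cluster) and bases shared with another member (grey). Every alpha and gamma gene carries a grey part of at least 27.8% of its exons, and among the 22 beta genes only Pcdhb21 and Pcdhb22 have a grey part at all.

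All 58 members were above 0 in all 6 libraries. The gamma cluster carried the most signal: its summed FPKM was 171 ± 28.2 (SD, n = 2) in control, 181 ± 33.4 (n = 2) in scrambled siRNA and 180 ± 21.9 (n = 2) in Baf53b siRNA. The alpha sums were 35.8 ± 3.56, 35.9 ± 1.21 and 34.2 ± 2.76 in the same order, and the beta sums 37.1 ± 1.31, 37.0 ± 1.31 and 35.9 ± 1.92 (n = 2 each). For each cluster the group means differed by less than the SD of at least 1 group. Testing required a mean of 1 FPKM or more across libraries, which 48 members reached: 11 alpha, 15 beta and all 22 gamma. The members nearest to that level were Pcdha2 (mean 0.945 FPKM) and Pcdhb15 (0.976) below it, and Pcdhb19 (1.15) and Pcdhb2 (1.18) above it.

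Of the 5 C-type genes, 3 were the highest members of all. Pcdhgc5 was the highest member in every library, at 62.8 and 47.0 FPKM in control, then 73.0 and 51.4 with scrambled siRNA and 72.7 and 55.5 with Baf53b siRNA. Its mean of 60.4 FPKM was 34.1% of the gamma sum. Fragments estimated from the width of the deposited confidence intervals ran from 516 to 677 per library for Pcdhgc5. For Pcdhgc3, at a lower FPKM, they ran from 947 to 1189. Wide intervals lower this estimate, so fewer reads cannot be inferred from it. The part that allocation of shared fragments had in this level was not tested. The groups overlapped, and in each of them replicate 1 was the higher library.

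Pcdhgc3 was at rank 2 in every library, at 25.6 and 21.7 FPKM in control, then 27.6 and 21.1 with scrambled siRNA and 26.0 and 23.0 with Baf53b siRNA. The same order of replicates was seen, and the groups overlapped. Pcdhac2 was at rank 3 in every library, at 14.7 and 12.5 FPKM in control, then 14.4 and 14.2 with scrambled siRNA and 14.9 and 12.8 with Baf53b siRNA. It made up 39.4% of the alpha sum, and its highest library was 1.19 times its lowest. The other C-type genes were lower.

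Pcdhac1 was at 1.98 and 1.27 FPKM in control, then 2.18 and 1.73 with scrambled siRNA and 1.59 and 1.65 with Baf53b siRNA, among the alternate alpha genes rather than above them. Pcdhgc4 was at 9.67 and 5.33 FPKM in control, then 5.71 and 7.82 with scrambled siRNA and 5.40 and 7.31 with Baf53b siRNA. Its replicate order was reversed between control and the siRNA groups, and its rank among the members ran from 5 to 12. Over all libraries the C-type genes made up 42.4% ± 1.47 (SD, n = 2) of the alpha sum in control, 45.3% ± 0.173 with scrambled siRNA and 45.1% ± 0.581 with Baf53b siRNA. In the alpha share the siRNA libraries (45.2 and 45.4% for scrambled, 45.5 and 44.7% for Baf53b) lay above both control libraries (43.4 and 41.4%). In the gamma cluster the shares were 50.3% ± 1.69, 51.4% ± 0.674 and 52.8% ± 0.781 (n = 2 each), and the Baf53b siRNA libraries, at 53.4 and 52.3%, lay above the other 4. Both orders were noted after the values were seen and have no test.

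Among the alternate alpha genes the highest were Pcdha12 (mean 3.41 FPKM), Pcdha4 (2.94), then Pcdha6 and, at 2.02, Pcdha9. The lowest was Pcdha8, at 0.0849 and 0.247 FPKM in control, then 0.0919 and 0.0519 with scrambled siRNA and 0.248 and 0.0861 with Baf53b siRNA. Between 4.31 and 18.8 fragments per library stood behind Pcdha8, estimated from the width of its deposited confidence interval, so the order of its libraries is not resolved at this depth.

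Beta levels were low, and 7 of the 22 means were below 1 FPKM. Pcdhb9 was the highest, at 4.01 and 3.52 FPKM in control, then 4.04 and 3.60 with scrambled siRNA and 4.04 and 4.05 with Baf53b siRNA. It was followed by Pcdhb20 (mean 3.37 FPKM), Pcdhb7 (3.21) and Pcdhb17 (2.76), and Pcdhb1 was the lowest (0.186). Pcdhb20 ran from 2.91 to 3.88 FPKM over the libraries and Pcdhb7 from 3.02 to 3.55, so these neighbours in the order were not separated by the spread.

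Pcdhb8 had the widest range among the tested beta genes, with 2.24 and 4.48 FPKM in control, then 2.67 and 2.67 with scrambled siRNA and 2.35 and 1.70 with Baf53b siRNA. Control held both the highest library and 1 of the lower ones. Its fragments, estimated from interval width, ran from 14.5 to 45.5 per library, against 168 to 293 for Pcdhb7. At a similar FPKM and exon length (3484 and 3501 bases) the read numbers themselves should be alike. The gap therefore reflects wider deposited intervals for Pcdhb8, and fewer reads cannot be inferred from it.

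In the gamma cluster the alternate genes fall into the A and B sequence types, which alternate along the chromosome. The 12 A genes had a median level of 5.12 FPKM (2.02 to 9.18) and the 7 B genes 3.19 (2.34 to 5.03). By these means all 7 B genes lay below the A median, and 7 of the 12 A genes lay above the highest B gene, Pcdhgb6. Within single libraries the A median was above the B median in 6 of 6, but the highest B gene was above the A median in 4 of 6. The highest were Pcdhga11 (mean 9.18 FPKM), which was at rank 4 among all members in every library, Pcdhga7 (7.13), Pcdhga6 (6.44) and Pcdhga12 (6.15), and the lowest was Pcdhga1 (2.02).

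Position along a cluster went little with level. Spearman's rho between order on the chromosome and mean FPKM was 0.41 over the 12 alternate alpha genes, 0.06 over the 22 beta genes and 0.13 over the 19 alternate gamma genes, as a description of genes that share libraries and, in alpha and gamma, exons. The order of all 58 members by level was nearly the same in every library: Spearman's rho between libraries was 0.973 to 0.978 over the 3 pairs within a group and 0.958 to 0.985 over the 12 pairs between groups.

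**Figure D2:**
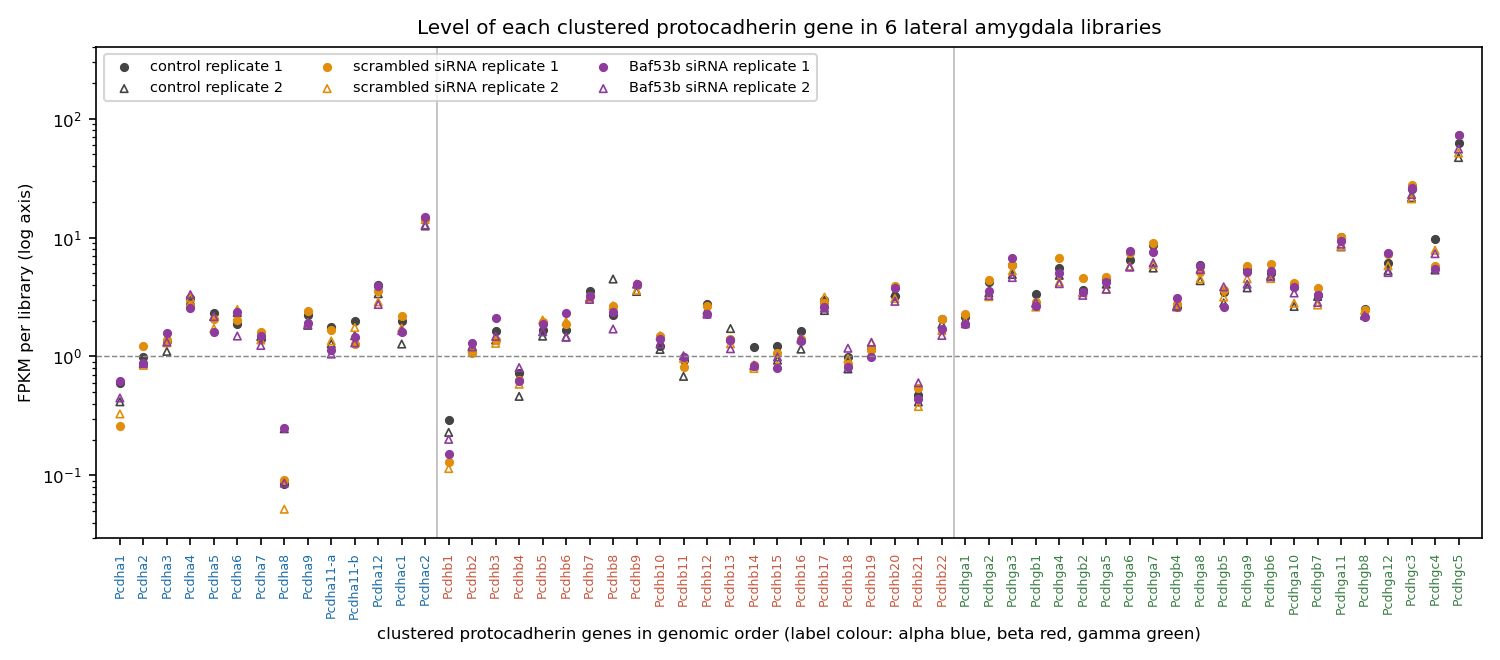
FPKM of each member (log axis) in the 6 libraries, in genomic order; filled circles are replicate 1 and open triangles replicate 2, coloured by group, and the dashed line marks 1 FPKM. Pcdhac2, Pcdhgc3 and Pcdhgc5 stand above the rest of their clusters in all libraries, and the groups intermingle for most members.

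The targeted gene comes first in any comparison of the groups. Actl6b was at 42.9 and 44.1 FPKM in control, then 43.8 and 43.9 with scrambled siRNA and 42.8 and 39.6 with Baf53b siRNA. The mean of log2(FPKM + 1) was lower by 0.09 in Baf53b siRNA than in scrambled siRNA (difference -0.09, SE 0.12, 95% interval -0.38 to 0.21), with an adjusted p of 1 in limma. A lower level of the target in the libraries labelled Baf53b siRNA was therefore not detected, and every comparison below is one of labelled groups.

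The comparison with scrambled siRNA asks whether the clusters responded to an siRNA against this remodelling subunit. None of the 48 tested members differed between Baf53b siRNA and scrambled siRNA by limma on log2(FPKM + 1) with adjustment over the 14664 genes tested (adjusted p of 1 for each). Over all genes 0.123% were called at an adjusted p under 0.05. At an unadjusted p under 0.05 the count of members was also 0, against 3.03% of all genes, and the smallest unadjusted p of a member was 0.178. The limma intervals bounded what could have been missed: for all 48 members the 95% interval lay within a 2-fold change on this scale in either direction, and for 37 within 1.5-fold. The scale understates the change of low genes.

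Members with the smallest p pointed both ways. Pcdha11-a was at 1.68 and 1.35 FPKM with scrambled siRNA and 1.12 and 1.05 with Baf53b siRNA (log2 difference -0.27, SE 0.18, unadjusted p = 0.178, limma). Control lay with scrambled siRNA for this gene, at 1.76 and 1.28 FPKM, and the Baf53b siRNA libraries were below all 4 others. Pcdhb3 was at 1.37 and 1.29 FPKM with scrambled siRNA and 2.12 and 1.47 with Baf53b siRNA (0.25, SE 0.18). Control was at 1.63 and 1.37 FPKM for Pcdhb3 and overlapped with Baf53b siRNA. Differences for Pcdhb8, Pcdhgb2 and Pcdhga8 were -0.29 (SE 0.26), -0.19 (SE 0.17) and 0.18 (SE 0.18).

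The leading genes differed little. Between Baf53b siRNA and scrambled siRNA the log2 difference was 0.05 for Pcdhgc5 (95% interval -0.50 to 0.61), 0.01 for Pcdhgc3 (-0.40 to 0.43) and -0.05 for Pcdhac2 (-0.40 to 0.30). Pcdhac1 was at -0.17 (-0.63 to 0.29), and Pcdhgc4, at -0.08 (-0.74 to 0.59), had the widest interval of the C-type genes. The median over all members of a cluster was -0.06 in alpha, -0.02 in beta and -0.05 in gamma, with 0.003 over all genes tested. Leaving out 1 library at a time moved the gamma median between -0.18 (without scrambled siRNA replicate 2) and 0.09 (without scrambled siRNA replicate 1), and it was 0.02 without Baf53b siRNA replicate 2 and -0.13 without Baf53b siRNA replicate 1.

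By order alone, 10 of the 48 tested members (20.8%) had both Baf53b siRNA libraries below both scrambled siRNA libraries, and 3 (6.25%) had both above. Over all genes tested these shares were 9% and 13.1%. The lower 10 were Pcdha9, Pcdha11-a, Pcdhac1, 5 beta genes and Pcdhga1 and Pcdhgb8 in the gamma cluster. The higher 3 were Pcdhb2, Pcdhb3 and Pcdhga8. Deposited intervals of Pcdhb2 were wide, equal to counting error on 13.3 to 25.5 fragments per library. FPKM was then rescaled to the genes outside the mitochondrial chromosome, a scaling applied to these counts after the data were seen. The lower count became 14 of 48 (29.2%) and the share over all genes 13.4%. On that scale 3 members were higher (6.25%, against 11.2% of all genes). Members share exons and libraries, so these counts are a description without a test, and no single difference among them passed limma.

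In this comparison general neuron markers differed by similar amounts. Oligodendrocyte markers did too (median log2 difference -0.07, 7 of 10 lower by sign). All 11 neuron genes tested, Snap25 and Uchl1 the highest of them, were lower in Baf53b siRNA than in scrambled siRNA by sign, with a median log2 difference of -0.07 and none called. Their summed FPKM was 3219 and 3199 in control, then 3374 and 3169 with scrambled siRNA and 3340 and 2855 with Baf53b siRNA. Against control 10 of the 11 were lower by sign, with a median of -0.06, where the median over all members was -0.01. The 12 microglia markers were all higher by sign, with summed FPKM of 350 and 347 in control, then 605 and 604 with scrambled siRNA and 1092 and 899 with Baf53b siRNA. The part of these shifts in the members' differences was not tested.

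**Figure D3:**
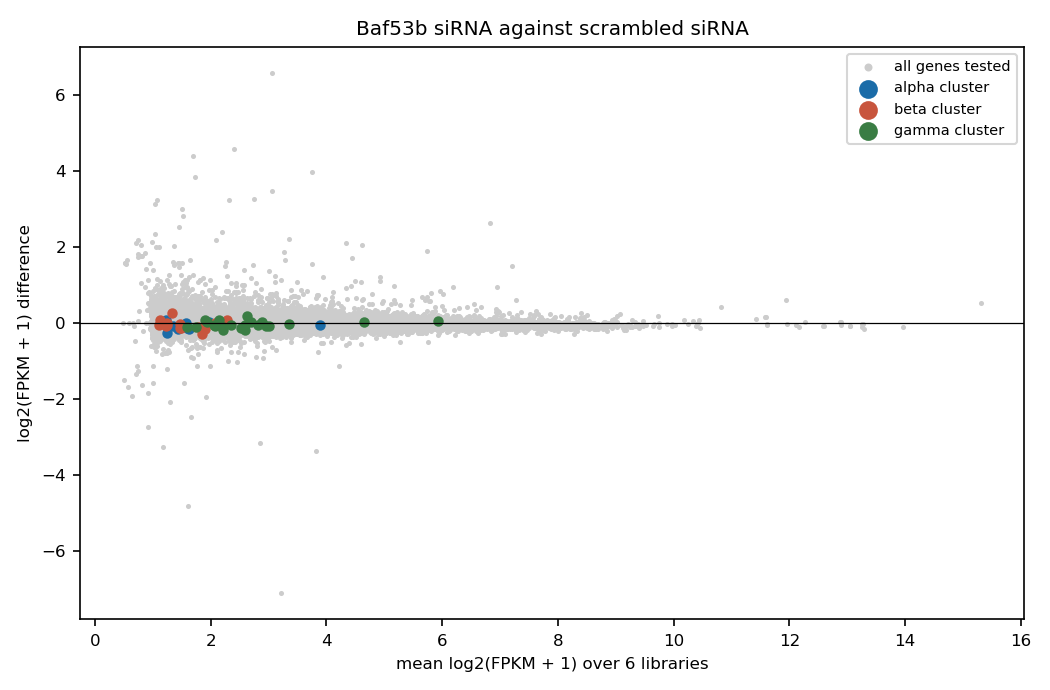
Difference in log2(FPKM + 1) between Baf53b siRNA and scrambled siRNA (vertical axis) against the mean over the 6 libraries (horizontal axis) for all 14664 genes tested in grey and the 48 tested members in colour by cluster. The members lie between -0.29 and 0.25, within the main band of genes of their level.

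Against control the picture was the same in size. None of the 48 tested members was called between Baf53b siRNA and control, where 1.23% of all genes were called, all of them higher; at an unadjusted p under 0.05 the members again numbered 0, with 5.02% over all genes. The largest difference was that of Pcdhb8 (log2 difference -0.49, SE 0.26, 95% interval -1.11 to 0.14, limma unadjusted p = 0.108), whose control libraries were themselves 2.24 and 4.48 FPKM. Without control replicate 1 the difference was -0.86 (limma adjusted p = 0.235) and without control replicate 2 it was -0.11. Pcdhb8 was the only tested member whose interval reached beyond 2-fold on the log2(FPKM + 1) scale, and 35 of the 48 lay within 1.5-fold. This scale understates the change of low genes, so intervals of other low members could pass 2-fold in FPKM.

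Both genes named Pcdha11 had lower means than in control, short of the test. Pcdha11-a differed by -0.27 (SE 0.18), and Pcdha11-b, at 1.99 and 1.49 FPKM in control, then 1.28 and 1.75 with scrambled siRNA and 1.46 and 1.30 with Baf53b siRNA, by -0.20 (SE 0.19). Pcdhb22 and Pcdha5 followed at -0.19 (SE 0.17) and -0.18 (SE 0.18). Cluster medians were -0.05 in alpha, 0.01 in beta and -0.005 in gamma, and 0.04 over all genes. Groups did not overlap for 7 members that were lower (14.6%, against 7.11% of all genes) and 2 that were higher (4.17%, against 16.7%).

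Rescaling to genes outside the mitochondrial chromosome raised the lower count against control from 7 to 18 of 48 (37.5%, against 15.7% of all genes). On that scale 1 member was higher (2.08%, against 11.7% of all genes). Control carried the largest single mitochondrial share, 29.5% of the FPKM sum in replicate 2, and the shares of the other 5 libraries ran from 15.0 to 26.9%. On this scale too no member was called.

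Scrambled siRNA and control, which share the control libraries with the comparison above, differed as little. No gene of the whole table was called (0% of 14664), and 2.22% had an unadjusted p under 0.05, among them no member. The members with the smallest p were beta genes: Pcdhb5, at 1.66 and 1.48 FPKM in control and 1.94 and 2.02 in scrambled siRNA, differed by 0.22 (SE 0.16), and Pcdhb10, at 1.22 and 1.14 against 1.47 and 1.49, by 0.19 (SE 0.16). Both were higher in the 2 scrambled siRNA libraries than in either control library. Pcdhb6 (0.19, SE 0.19), Pcdhac1 (0.18, SE 0.19) and Pcdha5 (-0.17, SE 0.18) followed. Without overlap 3 members were higher (6.25%, against 12.7% of all genes) and 2 lower (4.17%, against 5.57%), and the cluster medians were 0.01, 0.01 and 0.04, with 0.04 over all genes. After rescaling to genes outside the mitochondrial chromosome, 8 of 48 members were lower without overlap (16.7%, against 10.03% of all genes). On that scale 4 were higher (8.33%). For Baf53b siRNA the lower shares after rescaling were 29.2% against scrambled siRNA and 37.5% against control (all genes 13.4% and 15.7%). The source of these shares was not tested.

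**Figure D4:**
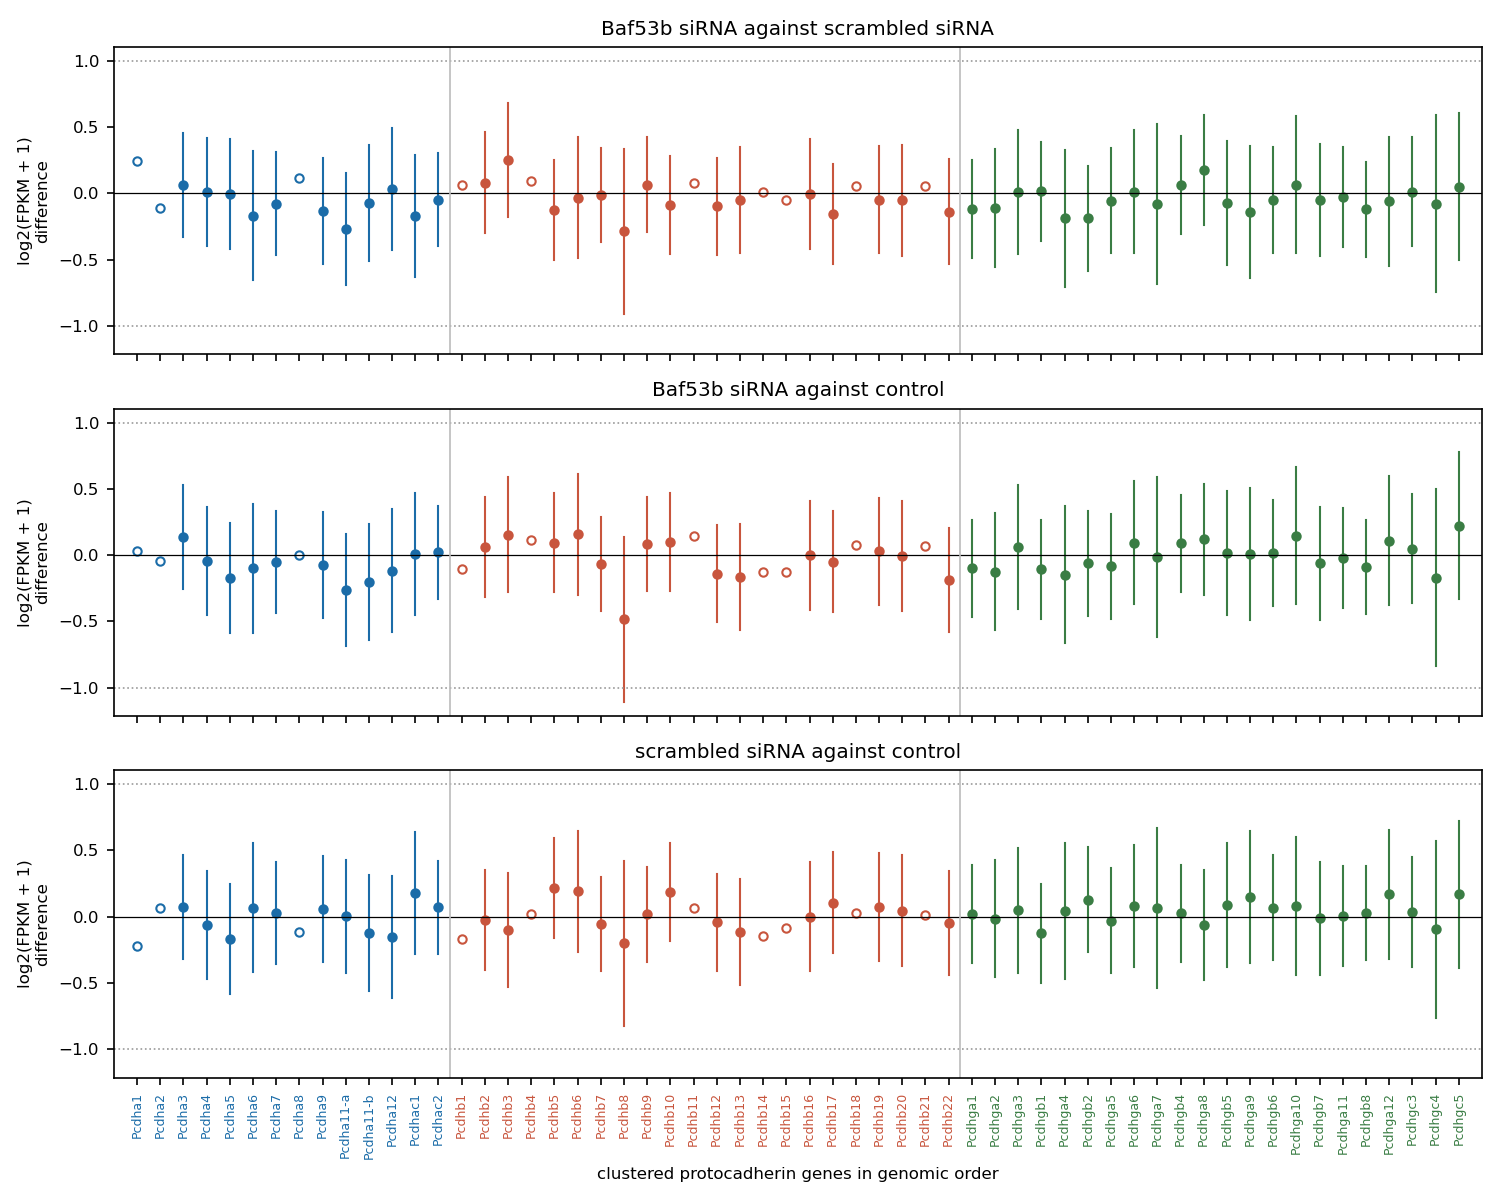
Log2(FPKM + 1) difference between groups for each member in genomic order, 1 panel per comparison; filled points with bars are the 48 tested members with limma's 95% intervals, open points the 10 members below the level for testing, and dotted lines mark a 2-fold change. Every interval includes 0, and only that of Pcdhb8 against control passes a dotted line. The lines hold for FPKM + 1, and the change in FPKM itself is larger for low genes.

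Gamma members differed more, by median, between the 2 libraries of a group than between group means. The first compares single libraries and the second means of 2 libraries, which vary less. Medians over all genes tested went the same way. Gamma sums were 191 and 151 FPKM in control, then 205 and 158 with scrambled siRNA and 195 and 164 with Baf53b siRNA, so replicate 1 was the higher library in each group. A comparison by replicate number was added after these values were seen. Replicate 1 was higher in all 3 groups for 16 of 22 gamma members (72.7%), 6 of 14 alpha members and 3 of 22 beta members, and lower in all 3 for none of the 58. Over all genes tested 37.1% were higher and 11.4% lower in this way.

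Pcdhgc5 had the smallest p by replicate number, with replicate 1 higher by 0.41, 0.50 and 0.38 on the log2(FPKM + 1) scale in control, scrambled siRNA and Baf53b siRNA (mean 0.43, SE 0.06, limma adjusted p = 0.0557). Pcdhga7, at 8.63 and 5.54 FPKM in control, then 8.94 and 5.92 with scrambled siRNA and 7.63 and 6.14 with Baf53b siRNA, followed (mean 0.45, SE 0.10, limma adjusted p = 0.0711). No member passed an adjusted p of 0.05 in this comparison, in which 0.327% of all genes did. At an unadjusted p under 0.05, 9 of the 48 tested members were higher in replicate 1, all of them gamma genes, with 22.5% over all genes.

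The mitochondrial share of FPKM moved with the replicate number. It was 19.4% and 29.5% in control, then 15.0% and 26.9% with scrambled siRNA and 19.3% and 22.8% with Baf53b siRNA, lower in replicate 1 each time. On FPKM rescaled to the remaining genes, replicate 1 was still higher in all 3 groups for 13 of 22 gamma members (59.1%, against 23.7% of all genes), for 2 alpha and for 1 beta member. The gamma median of the mean difference was then 0.11, with 0.003 over all genes, and Pcdhgc5 was at 0.32 (SE 0.07, limma adjusted p = 0.122). The labels do not say what a replicate number stands for.

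The deposited confidence intervals cover error within a library, not that between separate libraries. Within a group those of the 2 libraries did not overlap for 8, 12 and 7 of the 22 gamma members in control, scrambled siRNA and Baf53b siRNA, for 2, 0 and 3 of the 14 alpha members and for 2, 0 and 1 of the 22 beta members. Over all genes tested the shares were 33.4%, 27.6% and 23.3% in the same order. Pcdhgc4, Pcdhgc5 and Pcdhga7 were apart in all 3 groups. For Pcdhgc5 and Pcdhga7 replicate 1 was the higher each time, and for Pcdhgc4 only in control.

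**Figure D5:**
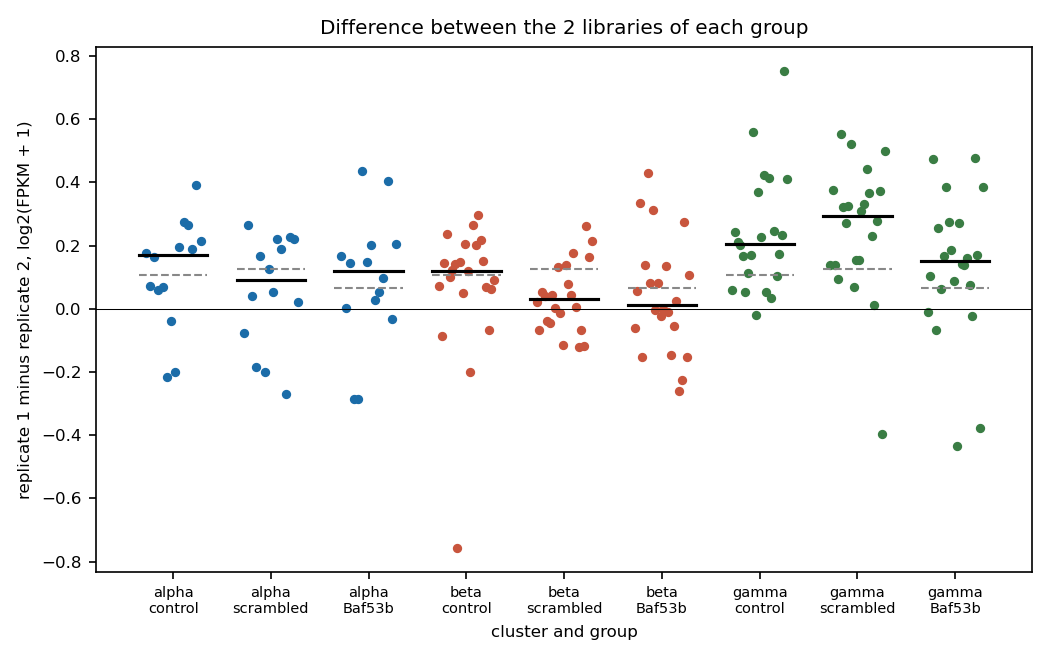
Replicate 1 minus replicate 2 of each group in log2(FPKM + 1), 1 point per member, by cluster and group; black bars are medians over the members of a cluster and dashed grey bars medians over all genes tested. Gamma medians are 0.21, 0.29 and 0.15 in control, scrambled siRNA and Baf53b siRNA, above the all-gene medians of 0.11, 0.13 and 0.07, and the beta medians are 0.12, 0.03 and 0.01.

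Another annotation on the same strand lies within the gamma cluster. The gene Gm38182, looked at after its values were seen, has all of its 1530 exonic bases in common with Pcdhgc5 and 628 of them with each of the other 21 gamma members. Gm38182 was at 5.43 and 7.05 FPKM in control, then 8.27 and 4.12 with scrambled siRNA and 8.44 and 5.58 with Baf53b siRNA, and its groups overlapped. How fragments of the common exons were divided among these genes was not tested.

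Antisense to the clusters, Gm38225, also chosen after its values were seen, overlaps an exon of Pcdha4 over 393 bases at chr18:36952651-36953043. It was at 2.05 and 2.18 FPKM in control, then 0.767 and 0.599 with scrambled siRNA and 0.763 and 0.780 with Baf53b siRNA, so both control libraries lay above the other 4. The difference from control was -0.89 (SE 0.16, limma adjusted p = 0.511) in scrambled siRNA and -0.81 (SE 0.16, limma adjusted p = 0.0984) in Baf53b siRNA, resting on 2.81 to 13.9 estimated fragments per library. Pcdha4 itself was at 3.12 and 2.95, 2.63 and 3.12, and 2.54 and 3.31 FPKM, with no such separation. How the authors' counting used strand is not given in the sources used here, so reads of the pair cannot be told apart with certainty.

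Genes that regulate or partner the clusters were read from lists beside the members. Of 24 regulators of the clusters' chromatin (CTCF, cohesin and its loaders and release factors, DNA methyltransferases and demethylases, and H3K9 methylation factors) 23 were tested and 0 were called in any of the 3 comparisons. Ctcf was at 21.3 and 20.9 FPKM in control, then 20.9 and 22.1 with scrambled siRNA and 20.9 and 22.5 with Baf53b siRNA, named for its role and not by its values. Trim28 and Ehmt2, a corepressor and a histone methyltransferase, were the highest of the list. The smallest p was that of Stag1, a cohesin subunit, at 9.52 and 7.70 FPKM in control and 10.6 and 11.0 in Baf53b siRNA (log2 difference 0.30, SE 0.15, limma adjusted p = 1). Scrambled siRNA, at 9.62 and 8.97, overlapped with control.

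Of 26 genes for signalling partners and proteases of the protocadherins, such as the kinases Fyn and Ptk2, the WAVE complex and the sheddase Adam10, all were tested and 0 called. Fyn, which acts downstream of alpha protocadherins, was at 55.1 and 50.5 FPKM in control, then 74.9 and 53.8 with scrambled siRNA and 63.2 and 71.2 with Baf53b siRNA (Baf53b siRNA against control 0.34, SE 0.18). Its groups overlapped between the siRNAs and not between Baf53b siRNA and control.

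Nonclustered protocadherins, single genes elsewhere in the genome, gave 11 tested of 12 and 0 called. Pcdh10 and Pcdh1 led them, Pcdh1 at 54.0 and 38.8 FPKM in control, then 53.5 and 42.5 with scrambled siRNA and 50.9 and 41.1 with Baf53b siRNA. As for Pcdhgc5, replicate 1 of Pcdh1 was the higher in each group. Pcdh10 was at 42.3 and 47.9 FPKM in control, then 51.4 and 47.2 with scrambled siRNA and 44.6 and 43.2 with Baf53b siRNA, so replicate 2 was the higher in control. Of 15 classical cadherins and catenins 14 were tested and 0 called, with the smallest p for Cdh8 between Baf53b siRNA and scrambled siRNA (log2 difference -0.38, SE 0.20).

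Markers of other cells did pass the test in the same libraries. Between Baf53b siRNA and control, 8 of 12 microglia markers, 8 of 9 tested reactive astrocyte and injury genes and 9 of 9 tested interferon-response genes were higher by limma at an adjusted p under 0.05. The injury and interferon lists held 12 genes each. Some genes passed the filter only through Baf53b siRNA, such as C3 (0.242 and 0.206 FPKM in control, 9.99 and 11.2 in Baf53b siRNA). Rsad2, an interferon gene below the filter, overlapped (0.127 and 0.382 FPKM in control, 0.244 and 0.355 in Baf53b siRNA). How many of the tested genes were called is therefore partly set by the filter. Single genes of the lists for astrocytes (Aqp4), leukocytes (Ptprc, of 2 tested out of 15) and the neighbouring thalamus (Prkcd) were also higher. No cell type or region was called from them. Of the 6 thalamic markers tested, 2 were higher and 4 lower by sign, with a median log2 difference of -0.04. Against scrambled siRNA the counts were 0, 4 and 2, and no marker of neurons, oligodendrocytes, their precursors, endothelium, pericytes, fibroblasts, choroid plexus or striatum was called in any comparison. Of the neuron markers, Snap25, a synaptic fusion protein, was at 735 to 841 FPKM in the 6 libraries.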

How the data were processed

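Messenger RNA libraries of mouse lateral amygdala (6 in all, 2 per group) were analysed from tables of FPKM per gene with confidence bounds, as deposited by the authors. The submitters' processing notes name the mouse build mm10, Cufflinks 2.2.1, TopHat2 2.1.1 and bcl2fastq 2.19.1.403. How fragments of shared exons and multiply aligned reads were assigned, and which annotation was used, is not given in the sources used here. FPKM is relative to the library, so a larger mitochondrial share lowers all other genes.

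Exons were compared in GENCODE M21, the same build. Read counts were not used. Fragments per gene were estimated by treating the half-width of a deposited interval as 2 standard errors of its count. This gave 6.42 to 10.7 M fragments per library. It takes the whole width as counting error, so an interval widened by other error yields too low a number. These figures are therefore not read counts, and the depth may be understated. Rows of 48 gene IDs were summed, and 4 failed estimates and 353 small RNA genes were left out.

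Group means of log2(FPKM + 1), with a pseudocount of 1, were fitted over all 6 libraries and 14664 genes (mean FPKM of 1 or more) in R 4.3.3 with limma 3.58.1, using a trend in eBayes and 3 residual degrees of freedom, two-sided, with Benjamini-Hochberg adjustment at 0.05 over all genes in each of 3 comparisons. The fit was tested on simulated data. An exact permutation test of 2 against 2 libraries cannot go below p = 0.333. Each library enters 2 of the 3 comparisons.

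Members named are the 5 C-type genes, the 4 highest others and the lowest of each cluster, the 5 smallest p per comparison and the 2 nearest to the filter on each side; of each other list, the 2 highest genes, the called genes and the smallest p could be named. Members and lists were chosen with earlier results of these data known. Of the 12 neuron markers listed, 11 were found by symbol. The replicate numbers were not taken to pair libraries, because only 2 same-numbered pairs exist per comparison and the labels give the number no meaning. No sequences are shown.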

Additional observations from a re-analysis of the deposited data

How the results depend on the processing

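No member was called in any comparison under 17 alternatives, 1 of them added after the data were seen. They changed the pseudocount (0.1), the filter (none, or 5 FPKM), the scaling, the libraries fitted, robust eBayes or the small RNA genes, left out 1 library each (the lone library of a group is then assumed to vary like the others), or added a replicate block. The smallest limma adjusted p among members was 0.235, for Pcdhb8 against control without control replicate 1. With the replicate block, pairing libraries by number, 0 members were called, Pcdhgc5 between Baf53b siRNA and control went to an unadjusted p of 0.0331 (limma adjusted p = 0.524), and the calls over all genes were 13 against scrambled siRNA, 188 for Baf53b siRNA against control and 0 for scrambled siRNA against control. Deviations of same-numbered libraries correlated at 0.36, 0.18 and 0.39 over all genes in these comparisons, and at 0.36, -0.20 and 0.18 over the 48 tested members. At an unadjusted p under 0.05 there was 1 member for Baf53b siRNA against control with quantile normalization, with the replicate block and without control replicate 1, and 1 for scrambled siRNA against control with no filter and without control replicate 1; every other alternative gave 0. Over all alternatives the calls ranged from 0 to 30 (18 as reported), from 34 without Baf53b siRNA replicate 1 to 188 (181) and from 0 to 7 (0).

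Cluster medians lay near 0 and moved with quantile normalization by more than the SD of a library's cluster median, pooled over the 3 groups (0.11 in alpha and 0.051 in beta): beta -0.10 against scrambled siRNA, alpha -0.19 and beta -0.12 for Baf53b siRNA against control, and beta -0.049 for scrambled siRNA against control. With 1 library left out, the last median ranged from -0.058 to 0.032. Medians have no test, and a sign this close to 0 was not read as a direction. Scaling moved the median of all genes by at most 0.07 in size. Depth and the 2 libraries per group limit precision. On the log2(FPKM + 1) scale 35 to 37 of 48 members had intervals within 1.5-fold. The estimate from interval width was at most 45.5 fragments in any library for Pcdha1, Pcdha8, Pcdhb1, Pcdhb2 and Pcdhb8. For Pcdhb2 and Pcdhb8 it follows wide deposited intervals and may not be a low read number.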

Other observations

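Genes other than the members lie within the span of the clusters, and those named here were chosen after their values were seen. Taf7, a general transcription factor gene between the beta and gamma clusters, was at 1.54 and 2.02 FPKM in control, then 1.39 and 2.09 with scrambled siRNA and 1.77 and 2.07 with Baf53b siRNA, with replicate 2 the higher in each group, opposite to the gamma sums. The annotated read-through genes Gm42416, Gm37013 and Gm37388, which join an alpha variable exon to gamma constant exons, were listed at or near 0 in every library. Gm10544, antisense within the alpha cluster and overlapping Pcdha11-b over 852 exonic bases, was at 0.457 and 0.324 FPKM in control, then 0.393 and 0.540 with scrambled siRNA and 0.305 and 0.672 with Baf53b siRNA, and its groups overlapped. Pcdha11-b, which has the longest exonic length of the alpha genes (7535 bases), was at 1.55 FPKM on average and Pcdha11-a at 1.37.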
